A study of Tupaia belangeri with 6 samples.

Results

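The loci described here are stretches of transcribed sequence to which no strand was assigned and which lie between genes on the autosomes of the tree shrew, Tupaia belangeri, a small mammal close to primates. A locus was taken if the abundance tables list its strand as a dot, if it lies on an autosome (leaving out the first stretch of chromosome 26, which was handled apart), and if its interval overlaps no locus with a plus or minus strand. The rule used position and strand and set no level of expression. The loci were, however, assembled from reads of these same libraries, so a locus is listed because some library covered it. Counts and levels compared between libraries are therefore partly set by which libraries contributed loci. It gave 4592 loci out of 95869 in the tables. The tables hold 17078 strandless autosomal loci in all, so 26.9% of them lie between stranded loci, and the other 12486 lie inside or across a stranded locus. None of the 4592 carries a gene symbol, and each has an assembler identifier beginning with MSTRG. Positions are given on the tree shrew assembly TS_3.0, as in the tables.

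The RNA came from the prefrontal cortex (PFC) of 3 adult females (numbered 1, 3 and 4) and 3 adult males (1, 4 and 5), with 1 library per animal. The labels list no treatment and no genotype, and all 6 libraries were prepared in the same way from polyadenylated RNA. Each male is listed at a greater age than every female, so age and sex cannot be told apart. Female 4, male 1 and male 5 stood apart from the other 3 libraries in these loci and in strandless loci inside stranded loci, with more of the summed level. They also had fewer stranded loci above 0, so values are given library by library. The values are TPM, a measure of transcript abundance scaled for the length of a locus and for the total of its library.

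A sequencing library that does not mark strand loses the direction of transcription. An assembler such as StringTie recovers it from the splice sites that a read crosses, because introns begin and end with characteristic bases. An assembled stretch with no intron therefore has no direction unless it joins an annotated gene. Stretches of this kind are known to arise from transcription that continues beyond the annotated end of a gene, from unannotated ends of long brain transcripts, from intronless noncoding RNA, from repeats and from traces of genomic DNA. The tables alone do not tell these sources apart, and which of them applies to a given locus was not tested.

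Most of the loci were short. The median length was 314 bp, with quartiles at 274 and 417 bp and a range from 200 to 18454 bp. A share of 65.7% (3017 loci) fell between 200 and 350 bp, and 376 loci (8.19%) reached 1000 bp or more. Strandless loci inside stranded loci were similar, with a median of 308 bp and 4.85% at 1000 bp or more. Stranded autosomal loci, whose span includes introns, had a median of 6858 bp. The loci were present on all 30 autosomes, from 40.9 per 1000 stranded loci on chromosome 17 to 89.2 on chromosome 24, with a median of 64.6.

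The loci varied widely in their distance from the nearest stranded locus. For those with a stranded locus on either side, the gap had a median of 20700.5 bases, and random positions were not compared. The median distance to the nearest stranded locus was 3312.5 bases, with quartiles at 1173 and 8653 bases. Within 1000 bases of a stranded locus there were 1022 loci (22.3%), and 87 lay within 100 bases. At the other extreme, 126 loci (2.74%) were more than 50000 bases from any stranded locus. For 2842 of the 4592 loci (61.9%) the nearest stranded locus presented its 3′ end, the end of the transcript. Among the loci within 1000 bases the share on the 3′ side was 67.3% (688 of 1022). It was 67.6% for the 522 of these whose neighbour has a gene symbol, which belong to 506 different genes, and 67.0% for the 500 next to a stranded locus without one.

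The same direction was seen in the gaps between stranded loci. Of the 4574 loci with a stranded locus on either side, 1503 (32.9%) lay in a gap bounded by 3′ ends on both sides. Such gaps made up 26.3% of all 26347 gaps between autosomal stranded loci and 27.9% of their bases. Gaps bounded by 5′ ends on both sides held 735 loci (16.1%), against 23.4% of gaps and 20.5% of gap bases. The remaining 2336 loci lay between a 3′ end and a 5′ end, and 57.1% of them were nearer the 3′ end. These are counts of positions in a single merged annotation, so they have no replicate and no test.

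The stranded loci nearest to them were more often expressed than stranded loci in general. The nearest stranded locus had a gene symbol in 44.3% of cases, against 28.7% of all stranded autosomal loci. It reached 1 TPM or more in all 6 libraries for 41.1% of the loci, against 16.7% of all stranded autosomal loci. Across loci, however, the level of a locus followed that of its neighbour only weakly. The Spearman correlation between them was from 0.069 to 0.186 in the 6 libraries over 4592 loci that share library and depth, and it is given as a description.

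How often the loci were found differed widely from locus to locus. A total of 1513 loci (32.9%) had a value above 0 TPM in exactly 1 library, and 764 (16.6%) in all 6. The numbers above 0 in 2, 3, 4 and 5 libraries were 795, 573, 480 and 464. These counts take any value above 0, however small. Strandless loci inside stranded loci were found in a single library more often (40.9%) and in all 6 less often (10.4%). Within each library, the share of loci above 0 TPM was greater between stranded loci than inside them, by 7.09 percentage points on average (range 2.64 to 10.4, higher in 6 of 6 libraries, exact paired permutation test, two-sided p = 0.031, the smallest p that 6 pairs allow).

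**Figure D1:**
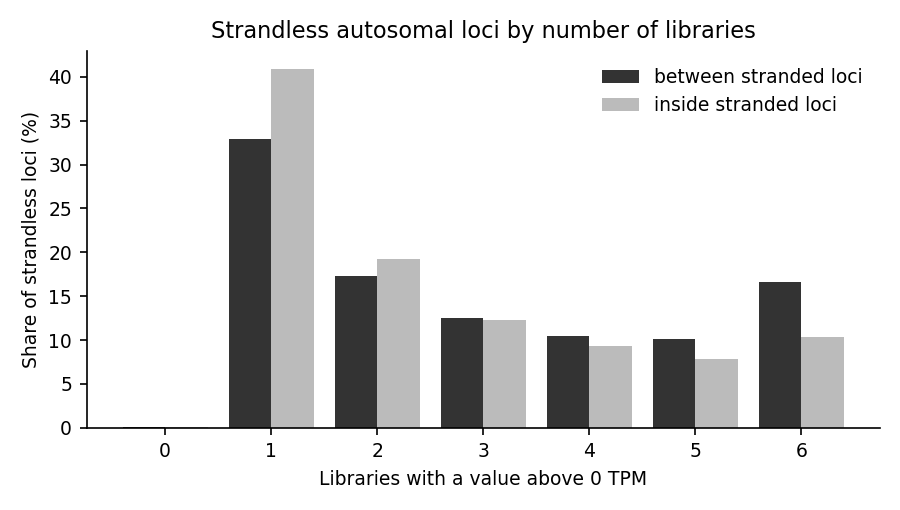
Share of strandless autosomal loci (vertical axis, percent) by the number of libraries, out of 6, in which the locus was above 0 TPM (horizontal axis). Dark bars are the 4592 loci between stranded loci and light bars the 12486 inside them; the dark bars stand at 32.9% for 1 library and 16.6% for 6, and the light bars at 40.9% and 10.4%.

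The mean level followed the same order. The mean of log2(TPM + 1) over all 4592 loci exceeded that over the loci inside stranded loci by 0.19, 0.15 and 0.17 in females 1, 3 and 4, and for males 1, 4 and 5 by 0.04, 0.15 and 0.05. The average difference was 0.13 on the log2 scale (exact paired permutation test, two-sided p = 0.031), and it was positive in 6 of 6 libraries. It was 0.05 (p = 0.094, same exact test) among loci of 200 to 400 bp and 0.03 (p = 0.28) when only loci at least 5000 bases from every stranded locus were compared with those inside, so the call was lost in both. Among loci above 0 TPM in a library, the median TPM between stranded loci was higher in 3 libraries and lower in the other 3.

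Length and recurrence went together. Loci found in 1 library had a median length of 289 bp, and 90.3% of them were between 200 and 350 bp. Those found in all 6 libraries had a median of 841.5 bp, and 41.9% reached 1000 bp. Of the 376 loci of 1000 bp or more, 320 (85.1%) were above 0 TPM in all 6 libraries and 0 were limited to 1 library.

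**Figure D2:**
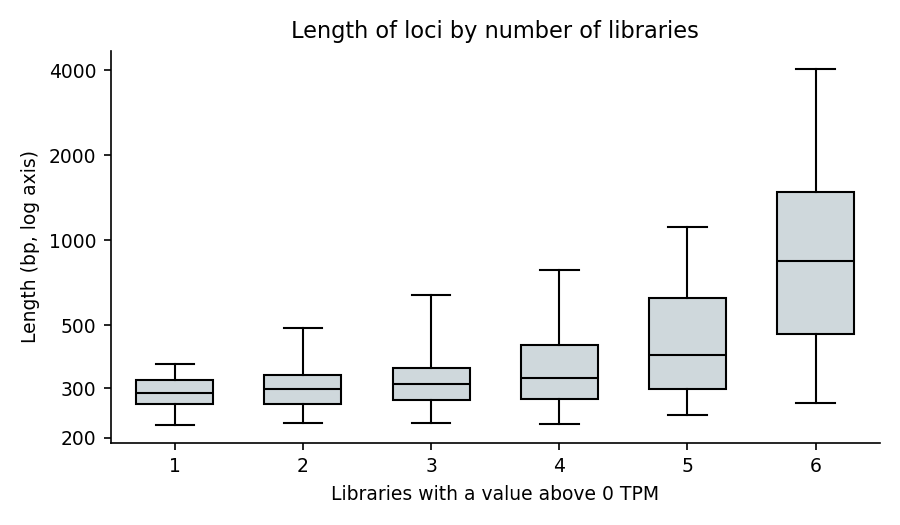
Length of the loci (vertical axis, bp, log axis) by the number of libraries in which they were above 0 TPM (horizontal axis). Boxes span the quartiles with the median as a line and whiskers run from the 5th to the 95th percentile; the median is 289 bp for loci found in 1 library and 841.5 bp for those found in all 6.

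The 6 libraries were not alike in these loci. The loci above 0 TPM numbered 2058 in female 1, 2025 in female 3 and 2158 in female 4. In males 1, 4 and 5 they numbered 2414, 2109 and 2882. The loci found in a single library were spread far less evenly, since 53, 46 and 283 of them belonged to females 1, 3 and 4, while 434, 31 and 666 belonged to males 1, 4 and 5. Strandless loci inside stranded loci had the same pattern, with 111, 138 and 764 found only in females 1, 3 and 4. For males 1, 4 and 5 these numbers were 1792, 100 and 2206. In both sets female 4, male 1 and male 5 therefore held most of the loci that no other animal shared, and male 4 had fewest. The number of stranded autosomal loci above 0 TPM was lower in those libraries (21178 in female 4, 21692 in male 1 and 20244 in male 5) than in the other 3 (23558 to 23943).

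The summed level separated the same libraries. The summed TPM of all loci was 5625, 5310 and 8069 in females 1, 3 and 4, against 11475, 5634 and 17019 in males 1, 4 and 5, which is from 0.549% (female 3) to 1.78% (male 5) of all TPM. Strandless loci inside stranded loci were high in the same libraries, with a summed TPM of 9897, 10325 and 17784 in females 1, 3 and 4. In males 1, 4 and 5 it was 27801, 10772 and 43179. For the loci between stranded loci, the median TPM of those above 0 was between 1.22 and 1.30 in female 1, female 3 and male 4. It was 3.30 in female 4, 4.21 in male 1 and 5.24 in male 5. Male 5 held the highest value of the 6 libraries for 2024 loci, male 1 for 1197 and female 4 for 822, whereas the other 3 libraries held it for 160 to 200 each.

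These differences lay mostly in the short loci. Summed over the 3017 loci of 200 to 350 bp, TPM was 2278, 1956 and 3777 in females 1, 3 and 4, against 6335, 2187 and 10068 in males 1, 4 and 5, a 5.15-fold range over the libraries. Summed over the 376 loci of 1000 bp or more, it was 1535, 1563 and 1718 in the females, against 1866, 1480 and 1974 in the males, a 1.33-fold range. The same libraries were high in both classes, but by much less in the long one.

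**Figure D3:**
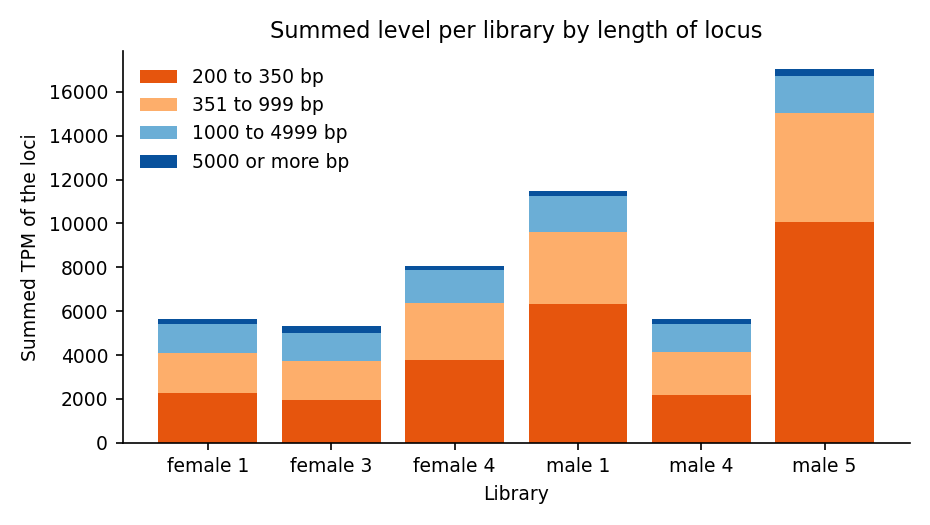
Summed TPM of the 4592 loci (vertical axis) in each library (horizontal axis), stacked by length of locus. The 200 to 350 bp class runs from 1956 in female 3 to 10068 in male 5, while the 2 classes of 1000 bp and over together run only from 1480 in male 4 to 1974 in male 5.

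The loci found in a single library had a further numerical feature. The tables give mean coverage (the average depth of reads over a locus), and for these unspliced loci coverage multiplied by length came to a whole number of bases in 96.3% to 97.3% of the values above 0 in each library (within 0.05 bases). In 746 of the 1513 loci found in 1 library (49.3%) the coverage itself was also a whole number (within 0.01), most often 6 (345 loci), 7 (172) or 8 (117). Coverage would be whole if every fragment counted on a locus covered it from end to end, which could not be checked without reads. Of those 746 loci, 742 (99.5%) were at most 300 bp long, against 20.9% of the 767 other loci found in 1 library.

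Whole-number coverage was found far less often among loci shared by all 6 libraries, where it made up 1.83% to 4.97% of values. Over all values above 0, it made up 2.84% to 3.74% in female 1, female 3 and male 4. In female 4, male 1 and male 5 it made up 13.3%, 15.7% and 25.9%. How the whole-number values arose was not tested, since the tables hold no reads.

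Depth limits what a value above 0 can say about a short locus. Dividing the covered bases by the read length of 150 gives a read equivalent, and the median locus above 0 rested on 4.28 to 5.03 read equivalents in female 1, female 3 and male 4 and on 13 to 14.7 in the other 3 libraries. A count of 3 reads on a locus of median length corresponds to 0.932 TPM in female 4 and up to 1.20 TPM in male 4. A value of 0 on such a locus allows a level up to about that limit and does not show that the locus was silent. Reads without molecular identifiers are not independent molecules, so this covers counting error only. Values above 0 that rested on under 1 read equivalent numbered 276, 269 and 136 in females 1, 3 and 4. In males 1, 4 and 5 they numbered 111, 313 and 52. The highest coverage that a locus reached in any library had a median of 7. In 2235 loci (48.7%) the second-highest coverage over the libraries was under 1.

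The loci were found less often far from a stranded locus than near one. Up to 1000 bases from a stranded locus, 53.5%, 51.6% and 54.1% of loci were above 0 TPM in females 1, 3 and 4, against 55.5%, 53.4% and 67.5% in males 1, 4 and 5. Beyond 50000 bases these shares were 22.2%, 23.0% and 47.6% in the females, against 43.7%, 26.2% and 49.2% in the males. The difference averaged 20.6 percentage points (range 6.49 to 31.3, exact paired permutation test, two-sided p = 0.031). The share was higher near stranded loci in 6 of 6 libraries. The decrease was larger in female 1, female 3 and male 4, and in female 4 the share rose again from 39.2% between 10000 and 50000 bases to 47.6% beyond, where only 126 loci lie.

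The loci shared by all animals showed the same tendency. The share found in all 6 libraries was 19.8% up to 1000 bases and 7.14% beyond 50000 bases, whereas the share found in 1 library rose from 22.2% to 56.3%. Loci on the 3′ side of their neighbour were above 0 TPM more often than those on the 5′ side, by 4.78 percentage points on average (range 3.41 to 6.49, 6 of 6 libraries, exact paired permutation test, p = 0.031). For mean TPM the direction rested on a few loci. It was lower on the 3′ side in 5 of 6 libraries (mean difference -0.20 TPM, same exact test, p = 0.0625), but 8 of the 10 loci with the highest mean TPM lay on a 5′ side. Without those 10 it was higher on the 3′ side in 6 of 6 libraries (0.17 TPM). The 10 were picked by the level compared, which moves the difference toward the 3′ side, so no p is given and no direction is drawn.

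**Figure D4:**
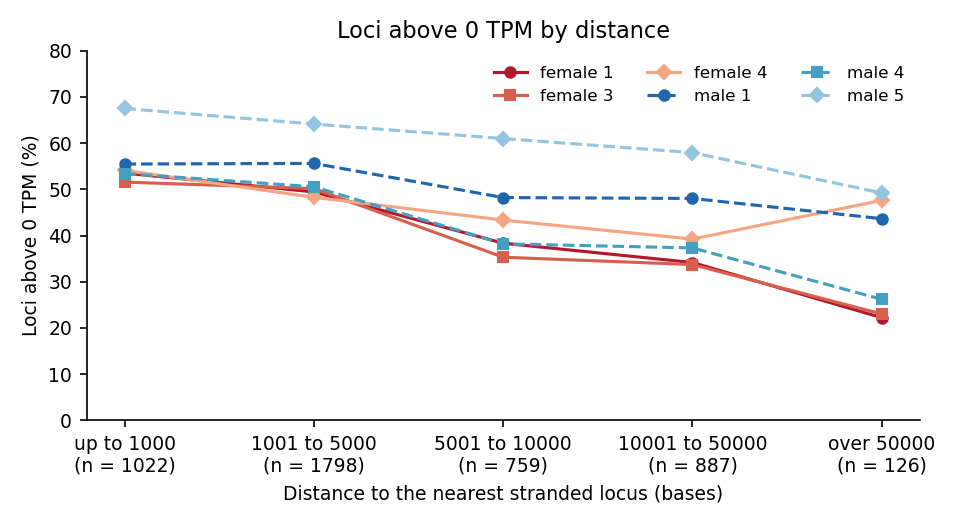
Share of loci above 0 TPM (vertical axis, percent) by distance to the nearest stranded locus (horizontal axis, bases, with the number of loci per class) in each library, females with solid and males with dashed lines. All 6 lines are lower beyond 50000 bases than up to 1000 bases, from 53.5% to 22.2% in female 1 and from 67.5% to 49.2% in male 5.

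Long loci had the smallest ratio between libraries and were often found at the 3′ side of stranded loci. Of the 376 loci of 1000 bp or more, 285 (75.8%) had the 3′ end of a stranded locus as their nearest neighbour, against 59.2% of the loci of 200 to 350 bp. Their median distance was 2242.5 bases, against 3793 bases for the short class. The ratio of the highest to the lowest library was taken among loci above 0 in all 6. Its median was 12.5 in the 121 loci of 200 to 350 bp. It was 4.30 in the 296 loci from 1000 to under 5000 bp and 2.16 in the 24 loci of 5000 bp or more. Those 121 are 4.01% of the short class, whereas 85.1% of the loci of 1000 bp or more were above 0 in all 6. Short loci rest on fewer reads, and the part of depth in these ratios was not tested.

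The longest locus, MSTRG.53007 (chr6:27018087-27036540), spanned 18454 bp. It began 4388 bases beyond the 3′ end of GRIN2B, which encodes the GluN2B subunit of the NMDA receptor for glutamate. Its TPM was 27.1, 34.9 and 20.4 in females 1, 3 and 4, against 27.1, 29.0 and 44.3 in males 1, 4 and 5. GRIN2B itself was listed between 0.493 and 5.51 TPM, so the locus stood above the gene in every library on this scale, which corrects for length. The sexes overlapped, with a female minus male difference of -0.28 (SE 0.27) in log2(TPM + 1) and an adjusted p of 0.933 (limma, Benjamini-Hochberg).

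MSTRG.12384 (chr13:51023022-51033355, 10334 bp) lay 433 bases beyond the 3′ end of MMP16, a membrane-bound matrix metalloproteinase. Its TPM was 8.14, 9.26 and 6.70 in the females, against 7.70, 7.89 and 10.9 in the males, a 1.63-fold range. MMP16 was listed at 0.150 to 1.93 TPM. As at GRIN2B, the strandless locus was higher than the gene in all 6 libraries.

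MSTRG.23340 (chr18:31155007-31170525, 15519 bp), the second longest, was farther from any stranded locus. It lay 21539 bases from the 5′ end of LINC-YIPF5-11, a noncoding locus listed at 0 in every library. Its TPM was 13.9, 19.8 and 10.7 in the females, against 13.2, 14.5 and 25.2 in the males. Female 4 was lowest and male 5 highest at all 3 of these loci.

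Other loci among the 10 longest, looked at after their values were seen, had a similar position. MSTRG.58375 (chr7:75804805-75812662, 7858 bp) lay 68 bases beyond the 3′ end of KCNN3, which encodes a small-conductance calcium-activated potassium channel. It measured 5.12 to 10.7 TPM in 5 libraries but was listed at 0 in male 4, where KCNN3 was at 4.31 TPM. MSTRG.13860 (chr14:24340829-24349281, 8453 bp) lay 1339 bases beyond the 3′ end of VTI1A, which encodes a SNARE protein of vesicle transport, with 6.98 to 16.7 TPM against 4.60 to 8.39 TPM for VTI1A.

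MSTRG.12834 (chr13:74267403-74276527, 9125 bp), 319 bases beyond the 3′ end of an unnamed stranded locus, was the highest of the 10 longest. It had 41.0, 62.9 and 44.8 TPM in the females, against 41.3, 41.9 and 57.0 TPM in the males. Of the 10 longest loci, 9 lay on the 3′ side of their neighbour, with MSTRG.23340 as the exception. In every library 8 of the 10 stood above their neighbour in TPM, and MSTRG.58375 did so in all but male 4. MSTRG.23520 (chr18:39894411-39901198, 6788 bp) went the other way, at 2.76 to 6.01 TPM beside an unnamed stranded locus at 84.7 to 146 TPM.

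The loci with the highest mean TPM were of another kind. Of the 10 highest, 7 were at 39.2 TPM or more in every library. The first and second owed their place to 1 or 2 libraries, and MSTRG.22520, which separated the sexes, is described with the comparison of females and males. MSTRG.40805 (chr27:16880741-16881391, 651 bp) was at 26.7, 24.4 and 35.1 TPM in the females, 63.3 and 31.3 TPM in males 1 and 4, and 830 TPM in male 5, where it rested on 4474 read equivalents. Its neighbours, RPL7li110 (12557 bases away) and an unnamed locus (6951 bases away), were at most 5.87 TPM in any library.

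MSTRG.11423 (chr13:3460109-3460317, 209 bp) was at 159 TPM in female 1 and 779 TPM in male 1 and was listed at 0 in the other 4 libraries. It lay 845 bases beyond the 3′ end of CHRAC1, named for a subunit of a chromatin accessibility complex, which the tables list at 21342 to 39145 TPM. The noncoding locus on its other side is named LINC-MT-ND1-1, after a mitochondrial gene. The only 3 loci with 0 TPM in all 6 libraries, MSTRG.11422, MSTRG.11420 and MSTRG.11421, lay in the same gap, at chr13:3460667-3461762, chr13:3462661-3463080 and chr13:3463318-3463790. No other gap held a locus that was listed at 0 throughout.

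Steadier values were found at MSTRG.4703 (chr10:9735726-9736000, 275 bp), 9077 bases from the 5′ end of ZSWIM6, which encodes a zinc finger protein. It measured 160, 150 and 219 TPM in the females, against 121, 155 and 52.9 TPM in the males. MSTRG.39828 (chr27:2924434-2925021, 588 bp) measured 61.1, 71.9 and 87.4 TPM in the females, against 91.4, 77.9 and 85.4 TPM in the males. Its neighbours on either side are the zinc finger genes ZNF844li1 (3436 bases away) and ZNF670 (6651 bases away), at no more than 27.8 and 1.24 TPM.

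MSTRG.33613 (chr21:48026979-48028230, 1252 bp) measured 72.7, 68.0 and 77.7 TPM in the females, against 61.3, 56.5 and 46.1 TPM in the males. It lay between the nucleoporin gene NUP93, at 15.0 to 26.4 TPM, and LINC-NLRC5-1, listed at 0. Every female was above every male, but the difference of 0.42 (SE 0.17) in log2(TPM + 1) had an adjusted p of 0.925 (limma, Benjamini-Hochberg). MSTRG.52614 (chr6:8645636-8646608) also had every female above every male, at 65.4, 92.9 and 65.4 TPM in the females, against 45.2, 57.3 and 53.7 TPM in the males. MSTRG.8320 (chr11:76887793-76888413) had every male above every female, with 54.3, 48.2 and 52.3 TPM in the females, against 84.0, 56.4 and 77.8 TPM in the males. Neither was called, and both had an adjusted p of 0.925 (limma, Benjamini-Hochberg). MSTRG.7809 (chr11:55098241-55098498) and MSTRG.44384 (chr3:85324976-85325249) complete the 10 highest, with means over the 6 libraries of 141 and 73.1 TPM and overlapping sexes.

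**Figure D5:**
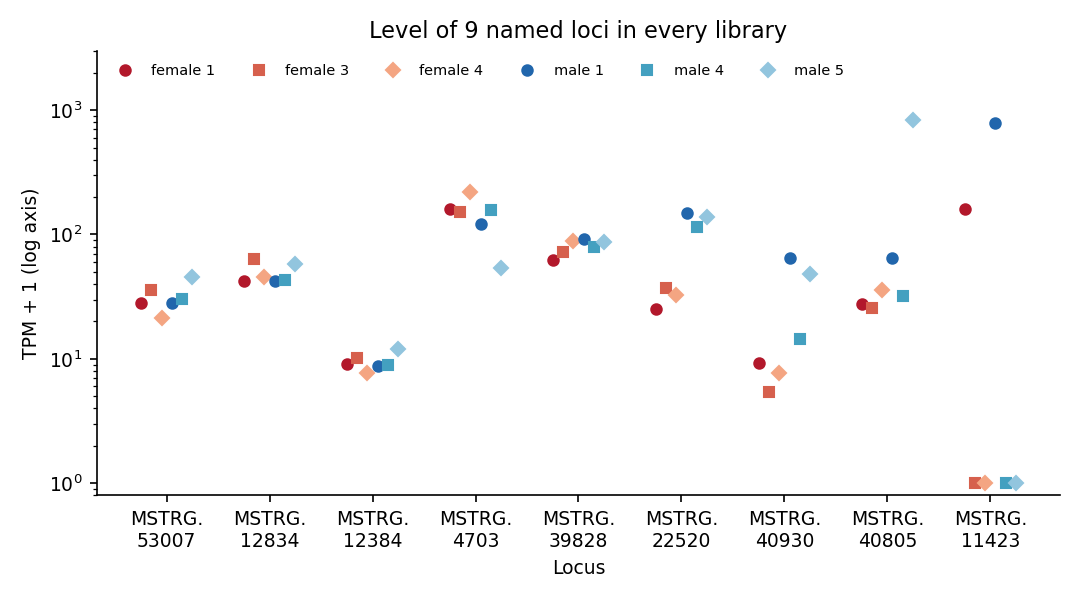
TPM + 1 (vertical axis, log axis) of 9 named loci (horizontal axis) in each of the 6 libraries, females in red and males in blue shades. The 3 long loci on the left (MSTRG.53007, MSTRG.12834 and MSTRG.12384) stay within 2.17-fold, MSTRG.22520 separates the sexes, and MSTRG.40805 and MSTRG.11423 are set by 1 or 2 libraries.

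The loci farthest from any gene were each seen in a single male. MSTRG.25471 (chr19:51612301-51612588, 288 bp) lay 306783 bases from the nearest stranded locus and was at 4.83 TPM in male 5. MSTRG.25472 (chr19:51702668-51702996, 329 bp), 273469 bases from the nearest stranded locus, was at 4.68 TPM in male 1. MSTRG.44547 (chr3:94982789-94983069, 281 bp), 197979 bases away, was at 5.63 TPM in male 5. Each rested on 11.5 to 14.0 read equivalents.

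Some loci lay in strings. Members less than 5000 bases apart formed 758 clusters of 2 or more, which held 1914 of the 4592 loci (41.7%). The 3 largest held 10 loci each. The first (chr30:327808-343908) began 295 bases beyond the 3′ end of DUSP22, which encodes a dual-specificity phosphatase, and had 4 to 9 of its loci above 0 TPM per library. Its summed TPM was 9.06, 15.6 and 35.9 in the females, against 24.4, 16.0 and 11.4 in the males.

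The second cluster (chr4:38753779-38772233) had 6 of its 10 loci above 0 in all 6 libraries, with a summed TPM of 21.7, 14.9 and 21.8 in the females, against 19.0, 18.8 and 62.4 in the males. The third (chr5:12503563-12520889) lay 246 bases from the 5′ end of PURB, which encodes a protein that binds purine-rich DNA and RNA. Its summed TPM was 3.25, 11.6 and 7.93 in the females, against 5.87, 5.33 and 51.5 in the males, so male 5 was highest at both.

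Females and males were compared over animals. In bulk tissue, fewer cells of a type and less RNA per cell cannot be told apart. The marker genes of neurons (4 of 5 found in the tables, summed TPM 5369 to 6552 in females, 4520 to 6640 in males, with NEFL listed at 0), of inhibitory neurons (5 of 5, 1169 to 1260 and 1013 to 1270) and of astrocytes (5 of 5, 1404 to 2079 and 1432 to 2184) overlapped between the sexes, as did those of excitatory neurons, microglia, endothelium and choroid plexus. Those of oligodendrocytes (3 of 5 found, 348 to 482 in females, 80.7 to 236 in males) and of blood (3 of 3, 1275 to 2542 and 62.7 to 101) did not overlap. Their part in the results below was not tested. None of the loci lay within 10000 bases of any marker gene.

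The summed TPM of the loci averaged 6335 ± 1511 in females, against 11376 ± 5693 in males (SD, n = 3 each), with a two-sided p of 0.2 in an exact permutation test, in which 3 against 3 cannot go below 0.1. The number of loci above 0 TPM was 2080 ± 69.3 in females, against 2468 ± 389 in males (exact permutation test, p = 0.2). The sexes overlapped in both, because male 4 lay among the females. Both values also partly reflect which libraries contributed loci to the assembly. The female minus male difference in summed TPM was -5041 over all 6 libraries, -2220 without male 5 and -7912 without male 4. That in the number of loci above 0 was -388 over all 6 libraries and -181 without male 5.

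For the loci of 1000 bp or more, the summed TPM was 1605 ± 98.9 in females, against 1773 ± 260 in males (SD, n = 3 each, exact permutation test, p = 0.4). The number of these long loci above 0 TPM was 361 ± 4.58 in females, against 359 ± 2.08 in males (p = 0.9, exact permutation test). For the 764 loci above 0 in all 6 libraries, the summed TPM was 3492 ± 230 and 4393 ± 956 (p = 0.3, exact permutation test).

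For single loci, a filter of 0.1 TPM in at least 3 libraries kept 2221 of the 4592. These were tested together with all other autosomal genes that passed, 27996 in all. A locus found only in 1 sex could pass through that sex alone, so counts over the 2221 are descriptions. At an adjusted p under 0.1 (limma, Benjamini-Hochberg), 1 locus was called, MSTRG.22520, against 0.0143% of all autosomal genes tested (4 genes).

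MSTRG.22520 (chr17:62374034-62374503, 470 bp) measured 24.4, 36.2 and 31.8 TPM in females 1, 3 and 4, against 147, 114 and 137 TPM in males 1, 4 and 5. Every male was above every female, with means of 30.8 ± 5.97 and 133 ± 17.0 TPM (SD, n = 3 each). The female minus male difference was -2.08 (SE 0.20) in log2(TPM + 1), with an adjusted p of 0.0363 (limma, Benjamini-Hochberg), and over the alternatives the adjusted p ran from 0.0145 to 0.468. The locus rested on 107 to 629 read equivalents per library. It lay 2073 bases beyond the 3′ end of LINC-APLNR-3 and 9432 bases before LINC-LRRC55-2, noncoding loci that were both listed at 0 in all 6 libraries.

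At an unadjusted limma p under 0.05, 57 of the 2221 loci (2.57%) were higher in females, against a background of 2.42% of all autosomal genes tested, and 120 (5.40%) were higher in males, against 2.62%. Every female exceeded every male at 80 loci (3.6%, background 4.84%), and every male exceeded every female at 179 (8.06%, background 4.97%). The share higher in females was near the background. The share higher in males was above it, and strandless loci inside stranded loci had a like share (6.48% of 4814 at an unadjusted p under 0.05, limma). The background of all autosomal genes tested includes both of these classes of strandless loci. Among the 20961 stranded autosomal genes alone, the balance was the opposite. Of these, 525 (2.505%) were higher in females and 301 (1.436%) in males (limma, unadjusted p under 0.05). Under quantile normalization, 70 loci (3.15%) were higher in females and 90 (4.05%) in males (limma, unadjusted p under 0.05), against 2.60% and 2.35% of all autosomal genes tested in that way. With FPKM the loci numbered 46 (2.07%) and 82 (3.69%), against 2.71% and 2.01%. The count of 120 depended on single libraries: it was 70 without female 1 (3.63%, all genes 1.84%) and 70 without female 3 (3.60%, all genes 2.10%), 196 of 1959 tested without male 1 (all genes 4.82%) and 211 of 1918 without male 4 (all genes 4.47%). With the number of stranded loci above 0 TPM in a library as a covariate, 73 loci (3.29%, all genes 1.90%) were higher in males, none was called, and MSTRG.22520 had a difference of -2.03 with an adjusted p of 0.163 (limma, Benjamini-Hochberg). The count of 57 higher in females was 34 without female 4 (1.73%, all genes 2.45%).

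Over all 4592 loci, with no filter, the mean of log2(TPM + 1) was 0.692 ± 0.150 in females, against 1.09 ± 0.469 in males (SD over library means, n = 3 each), a difference of -0.40 (exact permutation test, p = 0.2). Over the 2221 loci that passed the filter, the mean difference was -0.31, a description only, since the filter can pass a locus through the sex in which it is high. It was -0.16 under quantile normalization and with FPKM, -0.49 and -0.55 with pseudocounts of 0.1 and 0.01, -0.16 without male 5 and -0.45 without male 4.

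Of the 5 separated loci with the largest difference in favour of males, MSTRG.22520 was the only one called. MSTRG.40930 (chr27:18530363-18531603, 1241 bp) measured 8.27, 4.41 and 6.74 TPM in the females, against 63.8, 13.4 and 46.7 TPM in the males. It lay between CYP2B4li2, a cytochrome P450 gene copy, and PSMA6li3, a proteasome subunit gene copy, both listed at 0. Its difference was -2.28 (SE 0.52) and its adjusted p 0.925 (limma, Benjamini-Hochberg), so it was not called.

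MSTRG.55421 (chr6:107403066-107407781, 4716 bp) lay 1545 bases beyond the 3′ end of SLC25A17, which encodes a carrier of the peroxisome membrane. It was listed at 0 in females 1 and 3 and at 10.3 TPM in female 4, and at 10.8, 10.9 and 15.9 TPM in the males, whereas SLC25A17 was at 95.2 to 134 TPM throughout. The locus in female 4 was close to males 1 and 4, so the separation rests on the values of 0 in the other females. MSTRG.1267 (chr1:62792088-62792632) had 1.92, 0 and 0 TPM in the females, against 6.87, 6.91 and 4.28 TPM in the males. MSTRG.9387 (chr12:26676740-26676968) was listed at 0 in every female and at 2.68, 3.33 and 4.83 TPM in the males, from 5.57 to 9.16 read equivalents.

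In favour of females, the 5 loci were all low. MSTRG.5414 (chr10:53696748-53697017, 270 bp) measured 2.70, 6.70 and 8.45 TPM in the females, against 0, 0.579 and 0 TPM in the males. MSTRG.15532 (chr14:87839512-87839911), MSTRG.16919 (chr15:37857993-37858278), MSTRG.45038 (chr3:117805314-117805690) and MSTRG.64142 (chr9:80496528-80496899) had female means of 4.74, 3.35, 3.9 and 3.57 TPM and male means of at most 0.202 TPM. None of the 5 was called, and each had an adjusted p of 0.925 (limma, Benjamini-Hochberg).

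Named genes whose levels over the 6 libraries most resembled the summed TPM of the loci were sought among 9469 stranded autosomal genes with at least 1 TPM in every library, by Pearson correlation of log2(TPM + 1) over 6 libraries. The most alike were CCNG1li1, FAM98Bli1, CLEC12A, DMXL1 and STMP1li1, with r from 0.967 to 0.979. The least alike were C7ORF26, ARHGEF7, RPL6li276, NOC2L and HLA-DMA, with r from -0.985 to -0.990. DMXL1, for example, measured 27.2, 30.3 and 37.8 TPM in the females, against 48.9, 32.6 and 54.9 TPM in the males, in the same order of libraries as the loci except that females 1 and 3 changed places. ARHGEF7, a guanine nucleotide exchange factor, ran the other way, from 79.4 TPM in female 3 to 55.0 TPM in male 5. These genes were ranked out of many on 6 values, so the correlations are descriptions.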

How the data were processed

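The authors mapped the reads to TS_3.0 with HISAT2 2.2.1, assembled transcripts with StringTie 2.2.1 (versions as in the submitters' notes), merged them with a reference annotation and measured every library against the merged set. The deposited tables hold TPM, FPKM and mean coverage per locus, as the authors' StringTie run wrote them, with no read counts. The deposited TPM sum to 950532 to 971492 per library. One unit of coverage equalled 0.650 (female 4) to 0.836 TPM (male 4).

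Distances run from the edge of a locus to the nearest stranded locus. Sexes were compared with limma 3.58.1 (R 4.3.3, mean-variance trend) on log2(TPM + 1), in place of the authors' count test, with Benjamini-Hochberg adjustment over all autosomal genes having at least 0.1 TPM in 3 libraries and a threshold of 0.1. Exact two-sided permutation tests compared values between animals. Tables were read with Python 3.11.15, pandas 2.3.3, numpy 2.4.6, with rank correlations from scipy 1.17.1 and plots from matplotlib 3.10.9.

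The loci, lists and tests were chosen with earlier results of these data known. Loci are named if they are among the 10 with the highest mean TPM, called, among the 5 largest separated differences in either direction, among the 3 longest or 3 farthest, or in the 3 largest clusters; others were named after their values were seen. Alternatives were pseudocounts of 0.1 and 0.01, no filter or 1 TPM, FPKM, other scalings, the animal number as a block, no trend, chromosomes 13 and 26 left out, distant or length-matched loci and each animal left out. A covariate for stranded loci above 0 TPM, long loci alone, and a comparison of sides without the 10 highest loci were added after the data were seen. No sequence is printed because no TS_3.0 sequence was used here.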

Additional observations from a re-analysis of the deposited data

How the results depend on the processing

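The female minus male differences in summed TPM, in number of loci above 0 TPM and in mean log2(TPM + 1) stayed on the same side of zero in every alternative run, except that the number of loci above 0 TPM was 1.67 higher in females among loci of 1000 bp or more. With each animal left out in turn, summed TPM differed by -7912 to -2220, the number above 0 by -568 to -181, and the mean by -0.45 to -0.16, lowest in size without male 5 and largest without male 4. The difference from loci inside stranded loci (0.13) was 0.11 to 0.14 with 1 animal left out, where 5 pairs cannot go below an exact p of 0.0625. It was 0.047 among loci of 200 to 400 bp and 0.027 for loci at least 5000 bases from stranded loci. Mean TPM on the 3′ side minus the 5′ side turned from -0.20 to 0.17 without the 10 loci of highest mean TPM.

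MSTRG.22520 kept its direction in all 17 alternatives, with a difference of -2.21 to -1.93, and was called in 9. The number of called loci was 0 with FPKM, without the trend, with the covariate and without female 1, female 4, male 1 or male 5 (range 0 to 2 with 1 animal left out). It was also 0 among loci at least 5000 bases from stranded loci, a subset that leaves MSTRG.22520 out by construction. Without male 4 a second locus passed, MSTRG.48435 (chr4:78689346-78689605), with 27.9, 40.2 and 26.8 TPM in the females, 0 and 0.440 TPM in males 1 and 5, and 121 TPM in male 4 (limma gave an adjusted p of 0.0555 without that male). Its values in all animals did not separate the sexes.

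Counts at an unadjusted limma p under 0.05 came, without the filter, to 31 higher in females and to 65 higher in males (0.676% and 1.42% of 4589, all genes 1.07% and 0.894%), and 21 and 45 among loci at least 5000 bases away (3.23% and 6.92% of 650, all genes 2.43% and 2.49%). The covariate gave 73 higher in males (3.29%, all genes 1.90%), and quantile normalization 70 and 90 (3.15% and 4.05%, all genes 2.60% and 2.35%). Leaving out an animal gave 34 to 60 higher in females, lowest without female 4. It gave 70 to 211 higher in males: 70 without female 1 or female 3, 196 without male 1 and 211 without male 4. None of the other named loci was called under any alternative.

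Females and males share the animal numbers 1 and 4, which only name animals. With the animal number as a replicate block, which uses those 2 pairs, 0 loci were called (66 higher in females and 111 in males at an unadjusted limma p under 0.05, of 2221, with all genes at 1.87% and 2.18%), the mean difference was -0.11, the summed TPM differed by -1707 and the number above 0 by -154. Depth limits the short loci, since the median value above 0 rested on 4.28 to 14.7 read equivalents per library.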
